A study of Mus musculus with 6 samples.

Results

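The genes described here are 36 mouse genes that type I interferon is known to induce. They were chosen by name, from Ifit1 to Ifi27l2a, by matching the Ensembl identifiers of the deposited expression table to GENCODE M21 symbols. All 36 were found among the 34745 genes of the table, and all 36 passed the filter on low counts that left 14037 genes for testing. RNA came from alveolar macrophages, the macrophages of the air spaces, washed from the lungs of mice at day 7. The mice had been given bleomycin (5 mg per kg), whose lung injury serves as a model of fibrosis. There were 3 libraries from wild-type (WT) mice and 3 from mice labelled Phlpp1-deficient (KO). Phlpp1 is a phosphatase that dephosphorylates the kinase Akt, among others. Both groups received bleomycin. The labels give neither the allele, nor the cells in which the gene is lost, nor the strain, age or sex of the mice. Whether every library is a separate animal is not stated either, so the p-values reflect only how these libraries vary, and that variation may be technical.

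Type I interferons (the interferon-alpha family and interferon-beta) bind the receptor made of Ifnar1 and Ifnar2. The receptor activates the kinases Jak1 and Tyk2. Stat2 and Irf9 then take part in a factor that binds a DNA element, the interferon-stimulated response element (ISRE), in front of target genes. The products sense foreign nucleic acid, block viral replication, modify proteins with the ubiquitin-like Isg15, attract lymphocytes and restrain the response itself. Macrophages of the lung can both make interferon and respond to it.

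Library totals lay between 13340861 and 15843764 counts. Phlpp1 had 30.3, 25.3 and 28.5 CPM (counts scaled to a common library total) in WT libraries 1, 2 and 3 and 23.2, 21.6 and 17.7 CPM in KO libraries 1, 2 and 3, which is -0.43 on the log2 scale (KO minus WT) with an SE of 0.16 and an adjusted p of 0.62 in edgeR. A count over the whole gene includes exons outside any deleted part and checks the genotype only weakly. All 10 alveolar macrophage markers looked at, among them Siglecf, Marco and Chil3, had counts in every library. Markers of neutrophils, monocytes, lymphocytes, epithelium and red cells were present too. In bulk RNA, fewer cells of a type and less RNA per cell cannot be told apart.

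The interferon-stimulated genes differed mainly between single libraries. WT library 2 held the highest level of 31 of the 36 genes, against 24.1% of all tested genes. The other 5 genes, Ifi205, Bst2, Cxcl9, Ifi44 and Phf11d, were highest in WT library 3. No member was highest in WT library 1 or in a KO library. WT library 1 held the lowest level of 21 members and KO library 3 that of 11. The median FPKM (counts scaled by library total and gene length) over the members was, for WT libraries 1, 2 and 3, 16.3, 76.4 and 32.4. For KO libraries 1, 2 and 3 it was 33.7, 25.2 and 16.4. Thus WT library 1 and KO library 3 were alike low, WT library 3 and KO library 1 alike in the middle, and WT library 2 stood above all others. The number highest in WT library 2 was also 31 when counts were divided by library totals alone and when FPKM was used. Of all tested genes, 15.7% and 15.6% were then highest in WT library 2.

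**Figure D1:**
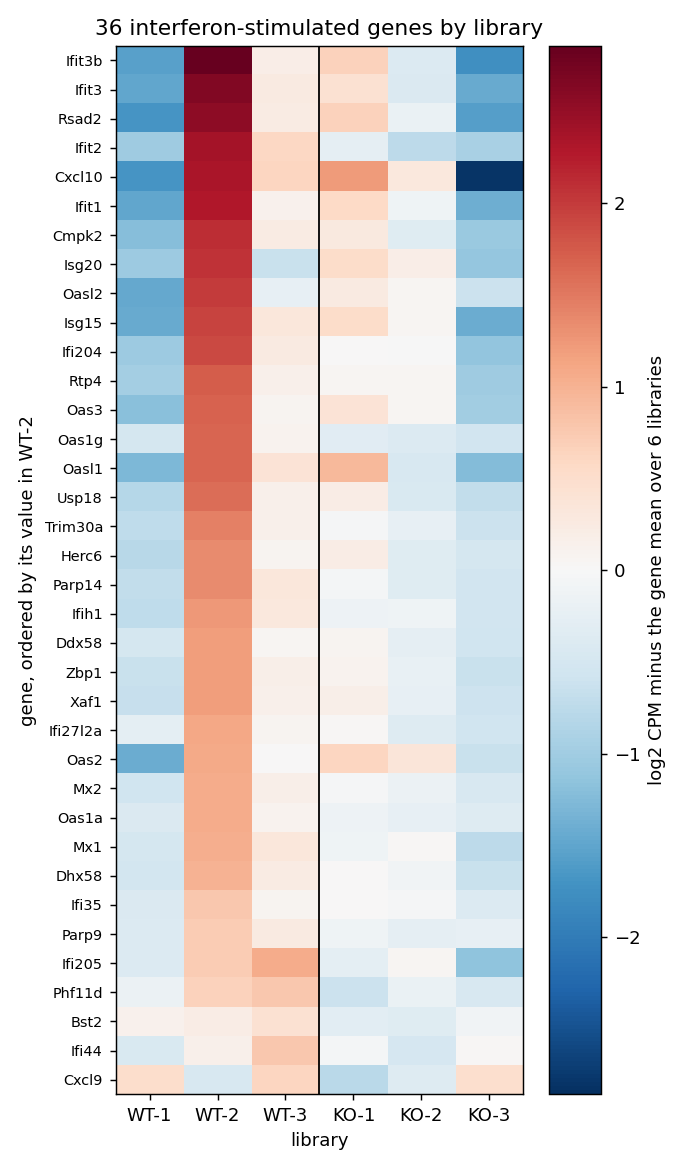
Each row is 1 of the 36 genes and each column 1 library; colour is log2 CPM minus the mean of that gene over the 6 libraries, red above and blue below it. WT-2 is the highest library for 31 genes, and WT-1 and KO-3 between them are the lowest for 32.

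Within WT the order was library 2 over library 3 over library 1 in 31 members (86.1%, against 22.7% of all tested genes). Within KO it was library 1 over library 2 over library 3 in 27 members (75.0%, against 17.1%). Over the 6 libraries, the highest exceeded the lowest by a median of 4.56-fold over the members and 1.69-fold over all tested genes. The median SD of log2 CPM among WT libraries was 1.08 for the members and 0.26 for all tested genes. Over the 3 KO libraries it was 0.40 and 0.25. The SD was larger in WT than in KO for 34 of the 36 members, Cxcl9 and Cxcl10 being the exceptions, and for 51.5% of all tested genes. These are descriptions of 6 libraries, and a difference in spread between the genotypes was not tested.

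Markers of other cell types also differed between the libraries. The 10 neutrophil markers summed to 1145, 9917 and 2071 CPM in WT libraries 1, 2 and 3 and to 4693, 6775 and 1271 CPM in KO libraries 1, 2 and 3. Of these 10, 8 had counts in every library, while Camp was at 0 in WT library 1 and KO library 3 and Ly6g at 0 in WT library 1. WT library 2 was the highest and WT library 1 and KO library 3 the lowest for these markers too. The orders parted at KO library 2, which was second in neutrophil markers but had interferon-stimulated genes below KO library 1 in 30 of 36 members. They also parted between WT library 3 and KO library 1. Neutrophil markers were higher in KO library 1, but 20 of 36 members were higher in WT library 3 (7421 of 14037 tested genes). The members' median was 1.05-fold, WT library 3 over KO library 1. WT library 2 exceeded KO library 2 by a median of 3.14-fold over the 36 members and by 1.46-fold in the summed neutrophil markers. The first value is a median of ratios per gene and the second a ratio of sums, so they are unlike measures. From WT library 1 to WT library 2 the members rose by a median of 4.46-fold and the neutrophil sum from 1145 to 9917 CPM. From KO library 3 to KO library 1 the members rose by a median of 1.66-fold and the neutrophil sum from 1271 to 4693 CPM. Red cell markers summed to 7620.4 CPM in WT library 2, 4698 CPM in KO library 2 and between 314 and 919 CPM in the other 4. The 10 monocyte markers, all with counts in every library, summed to 3572 to 5589.5 CPM in WT and 2602 to 4405 CPM in KO, with 10 of 10 log2 differences below 0 and 0 passing. The 10 alveolar macrophage markers went the other way, with 10 of 10 log2 differences above 0 and 0 passing. They summed to 5249, 6766 and 4518 CPM in the WT and 4985, 9629 and 8557 CPM in the KO libraries, so the groups overlapped. All 5 markers each of T cells, B cells and lung epithelium also had log2 differences above 0, all 5 of NK cells were below 0, and 0 passed. The part of these cells in the levels of the interferon-stimulated genes was not tested.

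**Figure D2:**
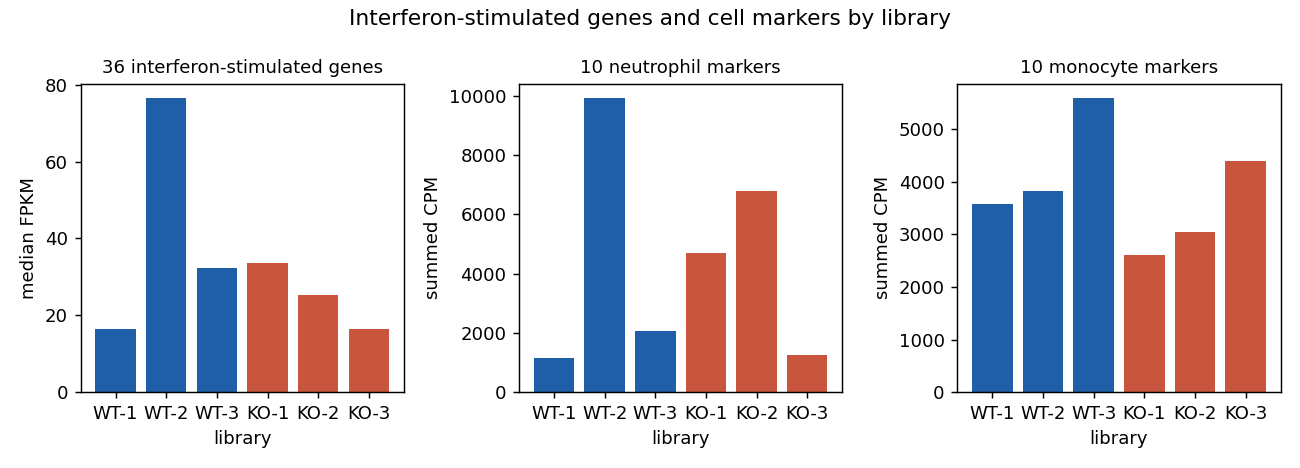
Bars give, for each library (WT blue, KO red), the median FPKM of the 36 interferon-stimulated genes, the summed CPM of 10 neutrophil markers and the summed CPM of 10 monocyte markers. WT-2 is highest in the first and second panels, KO-2 is second for neutrophil markers but not for the interferon-stimulated genes, and WT-3 is highest for monocyte markers.

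Between the genotypes, 0 of the 36 members passed the test, where 14 of 14037 genes did (0.0997%). The smallest adjusted p of a member was 0.498, for Bst2 and Phf11d, in edgeR's quasi-likelihood test. DESeq2 also called 0 members, and it called 1.42% of the genes it gave an adjusted p. At an unadjusted p under 0.05 there were 3 members in edgeR, Bst2, Phf11d and Ifit2, which is 8.33% against a background of 6.96% (3.56% for genes lower in KO, as all 3 were). All 36 log2 differences (KO minus WT) were below 0, against 54.3% of all tested genes, with a median of -0.78 beside -0.02 over all tested genes. With counts scaled by library totals alone, 35 were below 0. The number was also 35 with no filter on low counts, limma-voom, the limma fits on log2 FPKM and the replicate block. It was 35 as well without WT library 3 and without KO library 3. As a difference of mean log2 CPM, Oas2 lay at 0.22. The members' median was -0.57 with limma-voom. The direction was mixed without WT library 2, where the median was -0.01, with 19 members below 0 (49.4% of all genes) and 17 above, 2 members had an unadjusted p under 0.05 (background 8.49%) and 0 passed (background 0.0833%). Without WT library 1, the WT library with the lowest levels, the median was -1.15 and 26 members had an unadjusted p under 0.05 (background 7.62%). All 36 were then below 0 (background 53.1%) and 0 passed (background 0.0697%). In 2 of the 36 members the groups did not overlap, which is 5.56% beside 11.1% of all tested genes, or 6.53% for genes lower in KO, as both were.

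**Figure D3:**
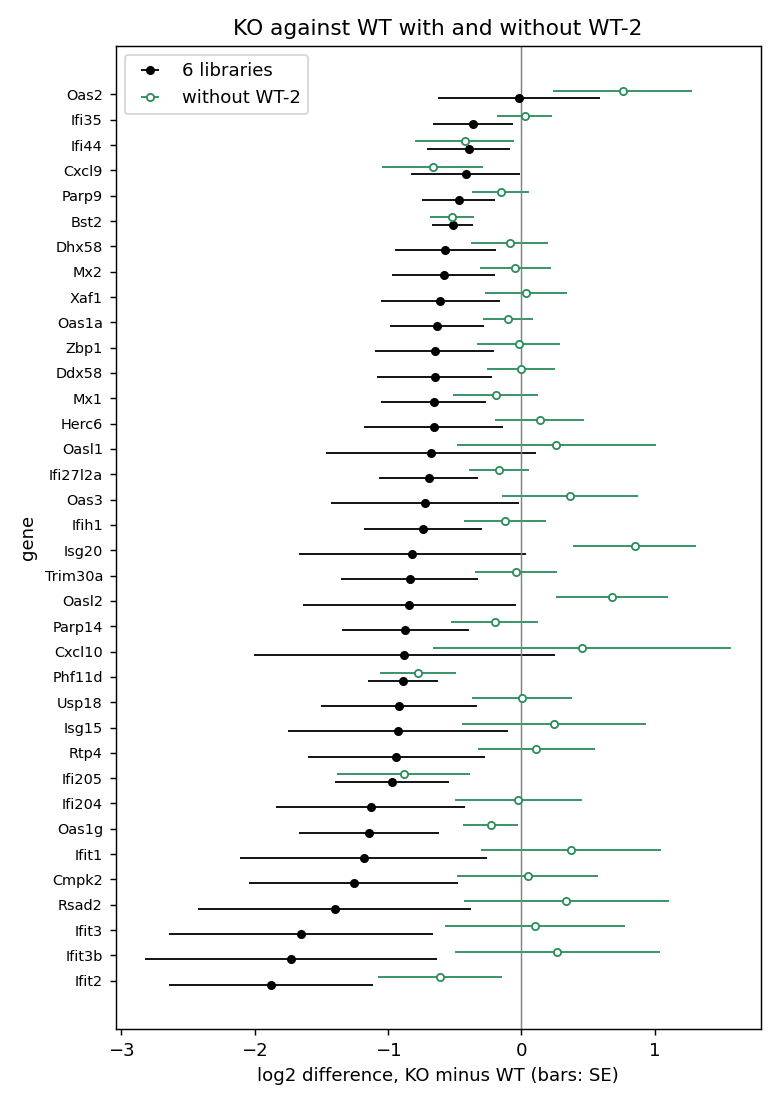
Log2 difference, KO minus WT, of each of the 36 genes with its SE, fitted on all 6 libraries (filled points) and without WT-2 (open points). The filled points all lie below 0, and 17 of the open points lie above it.

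Promoter stretches are shown for 8 of the members that hold the letters of the ISRE, the element through which type I interferon is known to act. RefSeq windows (GRCm38.p6) from 250 bases before to 50 after each annotated start were searched on both strands for the core of the ISRE, which is GAAA, any 2 bases and GAAA again. A window was given for 25 of the 36 members. The letters were present in 14 of these 25 (56%) and in 3.99% of all 27025 genes with a window. The 14 were Ifih1, Ddx58, Ifi205, Ifit1, Ifit3, Ifit3b, Oas1a, Oas1g, Oas3, Rsad2, Bst2, Isg15, Trim30a and Cxcl10. The 8 shown were picked by name. Ifi205, Oas3, Bst2 and Trim30a also had matches wholly before the start and are not shown. Matches that lie wholly before the start are in capitals in the stretches that follow, each written 5′ to 3′ on the strand of its gene, so that a match on the other strand reads TTTC first.

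Isg15 (chr4:156200850-156200921, minus strand): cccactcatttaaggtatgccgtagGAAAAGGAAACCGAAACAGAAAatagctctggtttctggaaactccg
Ifit1 (chr19:34640760-34640838, plus strand): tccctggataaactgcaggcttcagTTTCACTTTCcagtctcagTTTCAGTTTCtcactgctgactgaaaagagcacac
Ifit3 (chr19:34583348-34583441, plus strand): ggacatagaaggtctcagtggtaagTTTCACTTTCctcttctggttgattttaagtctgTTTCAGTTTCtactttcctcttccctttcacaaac
Ifit3b (chr19:34607744-34607837, plus strand): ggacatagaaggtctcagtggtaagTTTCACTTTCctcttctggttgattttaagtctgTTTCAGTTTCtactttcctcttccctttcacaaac
Oas1a (chr5:120907526-120907570, minus strand): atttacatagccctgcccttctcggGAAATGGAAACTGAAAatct
Oas1g (chr5:120887614-120887656, minus strand): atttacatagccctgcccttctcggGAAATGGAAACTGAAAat
Rsad2 (chr12:26456538-26456597, minus strand): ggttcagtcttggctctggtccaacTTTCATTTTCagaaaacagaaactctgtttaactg
Cxcl10 (chr5:92349068-92349127, minus strand): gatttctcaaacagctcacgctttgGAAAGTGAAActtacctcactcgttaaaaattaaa

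Isg15 held 3 overlapping matches and Ifit1 a pair of separate matches. The stretches of Ifit3 and Ifit3b were identical over 94 bases, and those of Oas1a and Oas1g over the 43 bases they share. The 14 members with the letters had a median of 5.91-fold between WT libraries 2 and 1 (range 1.07 to 21.3), and the 11 members with a window but without them a median of 4.47-fold (range 0.512 to 10.9), so the ranges overlapped widely. The letters TTCNNNGAA, which read the same on both strands and form the core of an element known from the response to interferon-gamma, were in 5 of the 25 members (20%) and in 9.55% of all genes. In Bst2 a match of this motif overlapped an ISRE match. A match describes letters only, and absence says only that these letters are not in this window.

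Sensors of foreign nucleic acid followed the library pattern at moderate amplitude. In coordinates of GRCm38 (mm10), Ifih1 (MDA5, chromosome 2, 62595798 to 62646255) and Ddx58 (RIG-I, chromosome 4, 40203773 to 40239828) detect double-stranded and uncapped RNA in the cytosol. Ifih1 had 88.5, 341 and 178 CPM in WT libraries 1, 2 and 3 and 132, 133 and 100.1 CPM in KO libraries 1, 2 and 3. The KO values lay inside the WT range (log2 difference -0.74, SE 0.44, edgeR adjusted p = 0.895). Ddx58 had 170.3, 557 and 250.4 CPM in the WT and 256, 202 and 165 CPM in the KO libraries, with only KO library 3 below the lowest WT library (log2 difference -0.65, SE 0.43, edgeR adjusted p = 0.921). Dhx58 (LGP2), which modulates both sensors, and Zbp1, a sensor of Z-form nucleic acid that can start necroptosis, had log2 differences of -0.57 and -0.65. Ifi204 and Ifi205 belong to the DNA-binding HIN-200 family. Ifi204 was 7.60-fold higher in WT library 2 than in WT library 1. Ifi205 was highest in WT library 3, with 60.6, 133 and 168 CPM in the WT and 65.6, 83.0 and 35.9 CPM in the KO libraries. KO library 2 lay above WT library 1, so the groups overlapped (log2 difference -0.97, SE 0.43, edgeR adjusted p = 0.745). Ifi204 and Ifi205 share stretches of at least 95% identity with Ifi211 and Mndal, so reads may have been divided among these genes and their counts are uncertain.

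RNA-binding and RNA-degrading effectors had a median step of 8.62-fold from WT library 1 to WT library 2, the highest median of the 6 role groups, with a range from 2.77-fold to 21.3-fold. The Ifit proteins bind viral RNA that lacks the host cap modification or partner with those that do, and the 4 Ifit genes lie together on chromosome 19. Ifit1 (chromosome 19, 34640871 to 34650009) had 92.6, 1269.8 and 284 CPM in WT libraries 1, 2 and 3 and 387, 240.0 and 98.1 CPM in KO libraries 1, 2 and 3 (log2 difference -1.18, SE 0.92, edgeR adjusted p = 0.968). Ifit3 (chromosome 19, 34583531 to 34588731) had 107, 1859 and 358 CPM in the WT and 403, 226 and 111 CPM in the KO libraries (log2 difference -1.65, SE 0.99, edgeR adjusted p = 0.893). For both genes all 3 KO values lay between WT libraries 1 and 2. Ifit3b (chromosome 19, 34607970 to 34613401), a neighbouring copy of Ifit3, had 34.7, 738 and 115 CPM in the WT and 160.1, 77.7 and 30.4 CPM in the KO libraries (log2 difference -1.73, SE 1.09, edgeR adjusted p = 0.912). Its 21.3-fold step from WT library 1 to WT library 2 was the largest of the 36 members. Transcripts of Ifit3 and Ifit3b are 97.8% identical over 1700 bases, so the split of reads between them is uncertain. With the counts of the pair summed the log2 difference was -1.67 (edgeR adjusted p = 0.9).

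Ifit2 (chromosome 19, 34550694 to 34576419) had 111, 1154 and 338 CPM in WT libraries 1, 2 and 3 and 186, 133 and 117 CPM in KO libraries 1, 2 and 3. The 3 KO values lay between those of WT libraries 1 and 3. Its log2 difference of -1.88 (SE 0.76) was the most negative of the members, with an unadjusted p of 0.0436 and an edgeR adjusted p of 0.687. Without WT library 2 it was -0.61 (edgeR adjusted p = 0.73).

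The oligoadenylate synthetases make a short messenger that activates RNase L, which cuts RNA. Oas1g (chromosome 5, 120876142 to 120887613) had 28.6, 129.5 and 43.4 CPM in the WT and 32.5, 30.9 and 27.6 CPM in the KO libraries, where the KO values lay within a narrow band around WT library 1 (log2 difference -1.14, SE 0.53, edgeR adjusted p = 0.774). Without WT library 2 its log2 difference was -0.23. Oas1a, 97.6% identical to Oas1g over 1861 bases, had a log2 difference of -0.63, and the summed pair -0.77 (edgeR adjusted p = 0.839). Oas2 and Oas3 had log2 differences of -0.02 and -0.72. Without WT library 2, Oas2 was at 0.76 and Oas3 at 0.37, neither passing (edgeR adjusted p = 0.703 and 0.859). The related Oasl1 and Oasl2, and Isg20, an exonuclease of single-stranded RNA, were 7.69-fold, 10.9-fold and 8.62-fold higher in WT library 2 than in WT library 1. Over the 11 genes of this group 11 were highest in WT library 2 and 0 passed between the genotypes.

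**Figure D4:**
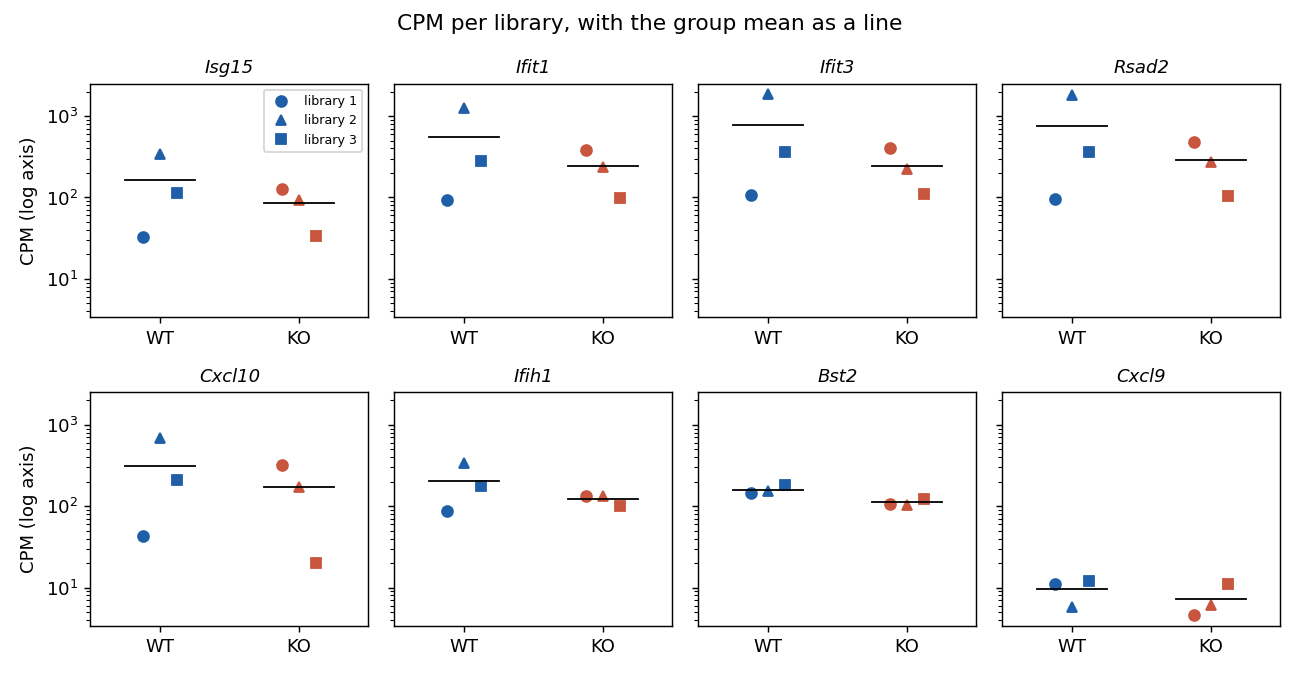
CPM on a log axis in each library for 8 of the genes, with WT in blue, KO in red, a symbol for each replicate number and a line at each group mean. For Isg15, Ifit1, Ifit3, Rsad2, Cxcl10 and Ifih1 the triangle of WT library 2 stands above the other 5 libraries, while for Bst2 the groups do not overlap and for Cxcl9 WT library 2 is the lowest WT library.

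Among effectors at membranes and vesicles, Rsad2 (viperin, chromosome 12, 26442746 to 26456452), which makes a chain-terminating nucleotide, had 95.2, 1809 and 363 CPM in WT libraries 1, 2 and 3 and 484, 271 and 103 CPM in KO libraries 1, 2 and 3. WT library 2 stood far above the rest and the 3 KO values lay between WT libraries 1 and 2 (log2 difference -1.40, SE 1.02, edgeR adjusted p = 0.947). Cmpk2, a mitochondrial nucleotide kinase whose gene lies beside Rsad2 on chromosome 12, was 9.98-fold higher in WT library 2 than in WT library 1. Mx1 (chromosome 16, 97447035 to 97462907), a dynamin-like GTPase that blocks influenza virus, had 86.5, 252 and 153 CPM in the WT and 112, 126 and 73.0 CPM in the KO libraries, so that the groups overlapped (log2 difference -0.66, SE 0.39, edgeR adjusted p = 0.892). Its neighbour Mx2, annotated as a polymorphic pseudogene, had 14.6, 45.4 and 24.5 CPM in the WT and 21.3, 19.2 and 15.7 CPM in the KO libraries (log2 difference -0.58, SE 0.39, edgeR adjusted p = 0.921). The Mx pair shares 843 bases at 95.3% identity. Rtp4, a chaperone of membrane receptors, had a log2 difference of -0.94. Ifi27l2a (chromosome 12, 103442167 to 103443680) had 123, 319.8 and 158 CPM in the WT and 154, 117 and 101 CPM in the KO libraries (log2 difference -0.69, SE 0.37, edgeR adjusted p = 0.84).

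Bst2 (tetherin, chromosome 8, 71534255 to 71537456), which ties budding virus to the cell surface, departed from the library pattern. It had 145, 155 and 181 CPM in WT libraries 1, 2 and 3 and 108, 105 and 124 CPM in KO libraries 1, 2 and 3. All 3 KO values lay below all 3 WT values, and WT library 2 lay between the other WT libraries. The means were 160.2 ± 18.6 CPM and 112 ± 10.3 CPM (SD, n = 3 per genotype). On the log2 scale KO lay at -0.51 from WT, with an SE of 0.15 and an adjusted p of 0.498 in edgeR. Permuting the 6 libraries exactly, two-sided, gave p = 0.1, the smallest that 3 against 3 allows. Without WT library 2 the log2 difference was -0.52. Bst2 is also a marker of plasmacytoid dendritic cells. The other 7 markers of these cells had counts in every library, and 6 of the 7 had log2 differences above 0, Cox6a2 being the exception at -0.03. With Bst2 included at the CPM given above, the 8 markers summed to 261, 245 and 285 CPM in WT libraries 1, 2 and 3. In KO libraries 1, 2 and 3 the 8 markers summed to 338, 197 and 310 CPM. Their part in the result was not tested.

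Isg15 (chromosome 4, 156199424 to 156200818), the ubiquitin-like modifier, had 32.7, 340.1 and 112 CPM in WT libraries 1, 2 and 3 and 128, 92.9 and 33.5 CPM in KO libraries 1, 2 and 3. WT library 1 and KO library 3 were nearly equal, and WT library 2 was 10.4-fold above WT library 1 (log2 difference -0.93, SE 0.82, edgeR adjusted p = 0.989). Usp18 (chromosome 6, 121245906 to 121270917), which removes Isg15 from proteins and silences the interferon receptor, had 53.6, 288 and 105 CPM in the WT and 109, 69.7 and 57.9 CPM in the KO libraries. It followed the same order at a smaller amplitude (log2 difference -0.92, SE 0.59, edgeR adjusted p = 0.916). Herc6, the ligase that attaches Isg15 in the mouse, had a log2 difference of -0.66. Trim30a, a tripartite-motif protein that restrains signalling, and the ADP-ribosyltransferases Parp9 and Parp14 were at -0.84, -0.47 and -0.87. All 6 genes of this group were highest in WT library 2, and 0 passed between the genotypes. Parp9 had the smallest SD of log2 CPM of all members in KO, 0.0669. Isg15 shares 482 bases at 95.2% identity with a processed pseudogene, and Trim30a shares 301 bases at 97.7% with Trim30d. The counts of Isg15 and Trim30a are therefore uncertain too.

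The chemokines Cxcl9 and Cxcl10, neighbours on chromosome 5 that both act on the receptor Cxcr3 of activated T and NK cells, differed in their order over the libraries. Cxcl10 (chromosome 5, 92346638 to 92348889) had 43.1, 691 and 209 CPM in WT libraries 1, 2 and 3 and 322, 171 and 19.8 CPM in KO libraries 1, 2 and 3. KO libraries 1 and 3 differed by 16.3-fold, about as much as WT libraries 2 and 1 (log2 difference -0.88, SE 1.13, edgeR adjusted p = 1). Cxcl9 (chromosome 5, 92321347 to 92328079), induced chiefly by interferon-gamma, had 11.1, 5.70 and 12.1 CPM in the WT and 4.59, 6.09 and 11.1 CPM in the KO libraries. WT library 2 and KO library 1, the highest of their genotype for Cxcl10, were the lowest for Cxcl9, and the groups overlapped (log2 difference -0.42, SE 0.41, edgeR adjusted p = 1).

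Of the remaining members, Ifi35 and Xaf1, a gene linked to cell death, were highest in WT library 2, with log2 differences of -0.36 and -0.61. Ifi44 (chromosome 3, 151730922 to 151749960) had 14.0, 20.9 and 32.5 CPM in WT libraries 1, 2 and 3 and 18.1, 13.7 and 19.5 CPM in KO libraries 1, 2 and 3 (log2 difference -0.40, SE 0.31, edgeR adjusted p = 0.971). Phf11d (chromosome 14, 59347407 to 59365470) had 24.1, 42.4 and 45.9 CPM in the WT and 17.6, 23.6 and 19.5 CPM in the KO libraries. All its KO values lay below all its WT values. On the log2 scale KO lay at -0.89 from WT, with an SE of 0.26 and an adjusted p of 0.498 in edgeR. The exact two-sided permutation p was 0.1, and the log2 difference without WT library 2 was -0.78. Phf11d shares 659 bases at 97.4% identity with Phf11a, so its counts are uncertain.

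The step from WT library 1 to WT library 2 was set beside that from KO library 3 to KO library 1, libraries chosen after their levels were seen. Ifit3b, Rsad2 and Ifit3 had 21.3-fold, 19.0-fold and 17.4-fold steps in WT and 5.27-fold, 4.68-fold and 3.63-fold steps in KO. Parp9 and Oas1a had 2.18-fold and 2.77-fold steps in WT and 1.08-fold and 1.17-fold steps in KO. Other members had a wide step in WT and a narrow one in KO: Ifit2 had 10.4-fold and 1.59-fold, Oasl2 10.9-fold and 1.82-fold, and Oas1g 4.52-fold and 1.18-fold. Across the 36 genes Pearson's r between both log2 steps was 0.86, and across all 14037 tested genes it was 0.36. Genes are not independent replicates, and every point rests on the same libraries and their depths.

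**Figure D5:**
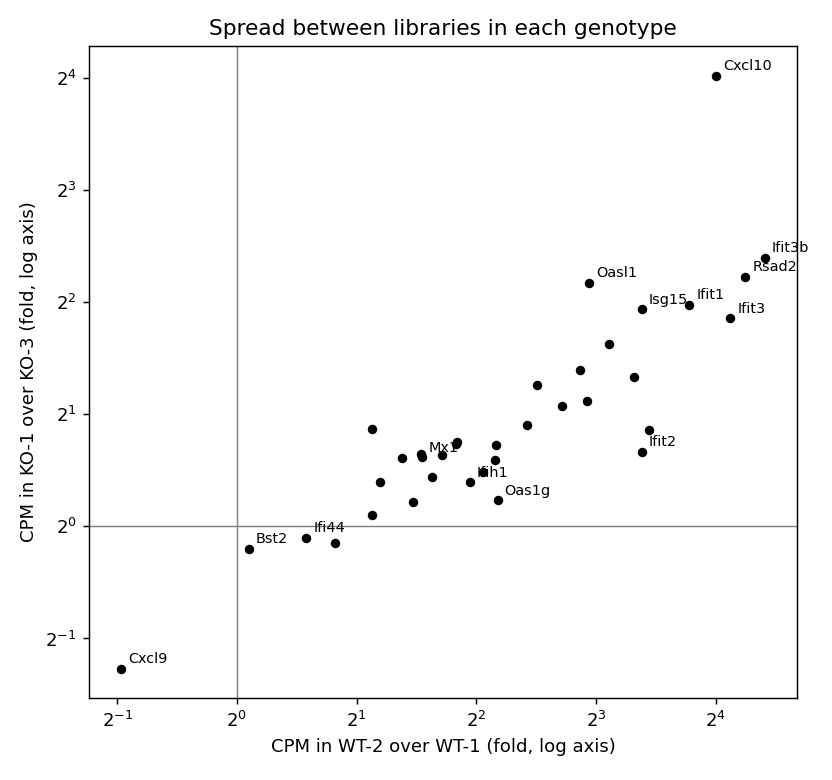
Each point is 1 of the 36 genes, with the fold of CPM in WT-2 over WT-1 on the horizontal axis and in KO-1 over KO-3 on the vertical axis, both logarithmic. Ifit3b, Rsad2 and Cxcl10 lie at the upper right, Bst2 and Ifi44 near the lines of no change, and Cxcl9 below 1 on both axes.

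By level per gene length, Ifi27l2a, Ifit3 and Bst2 were the most abundant members, at 344 ± 150.4 FPKM, 279.5 ± 349 FPKM and 178 ± 39.6 FPKM (SD over 6 libraries). The SD of Ifit3 exceeded its mean, so its place in that order is not firm. The lowest levels were those of Cxcl9, Ifi44 and Mx2, at 2.62 ± 1.10 FPKM, 2.63 ± 0.939 FPKM and 4.55 ± 1.93 FPKM. The median member had a mean of 34.3 FPKM, against 4.67 FPKM for all tested genes.

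Transcripts of the interferons themselves were close to absent. Of 18 type I interferon genes, 14 had no count in any library, and no library had more than 3 counts of any of them. Ifnb1 had 0, 1 and 1 counts in WT libraries 1, 2 and 3 and 3, 1 and 2 counts in KO libraries 1, 2 and 3. A count of 0 allows up to 3 counts, or 0.18 to 0.244 CPM depending on the library, and this covers counting error only. Ifng, the type II interferon made by NK and T cells, had 3.07, 2.53 and 1.84 CPM in the WT and 5.38, 4.77 and 3.68 CPM in the KO libraries. All 3 KO values were above all 3 WT values (log2 difference 0.89, SE 0.30, edgeR adjusted p = 0.558).

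Of 54 other genes of the pathway, 34 passed the filter on low counts, 0 passed the test in either direction (background 0.0997%), and 25 had log2 differences below 0 (73.5%, against 54.3% of all tested genes). An unadjusted p under 0.05 was found for 6 of the 34 (17.6%, against 6.96%), namely Tnfaip3, Socs1, Ifnar2, Tlr9, Ifng and Ifnar1. Tlr9, an endosomal receptor of DNA, had 43.3, 72.0 and 71.9 CPM in the WT and 41.7, 29.4 and 37.1 CPM in the KO libraries, without overlap (log2 difference -0.79, SE 0.24, edgeR adjusted p = 0.506). The receptor chains Ifnar1 and Ifnar2 had log2 differences of -0.44 and -0.51 (edgeR adjusted p = 0.67 and 0.481). Ifnar2 had 92.1, 122 and 109 CPM in the WT and 74.6, 72.1 and 80.2 CPM in the KO libraries, without overlap. Of the 34, the groups also did not overlap for Ifnar1, Tlr9 and Socs1, lower in KO, and for Ifng, Ifngr1 and Tnfaip3, higher in KO. Among all tested genes 11.1% did not overlap. Jak1 and Tyk2 varied little, with log2 differences of -0.07 and -0.06. Stat2 had 194, 679.7 and 301 CPM in the WT and 220.1, 194 and 175 CPM in the KO libraries (edgeR adjusted p = 0.738). Irf7, the factor that amplifies interferon-alpha transcription, had 119, 736 and 255 CPM and 236, 199.8 and 104 CPM (log2 difference -1.04, SE 0.65, edgeR adjusted p = 0.91). Stat2 and Irf7, themselves induced by interferon, were highest in WT library 2 like most members.

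Of 6 genes that restrain these responses, 4 were highest in WT library 2, namely Socs1, Trex1, Adar and Samhd1. Socs1, which inhibits Jak kinases, had 25.5, 38.4 and 25.3 CPM in WT libraries 1, 2 and 3 and 16.9, 12.1 and 6.93 CPM in KO libraries 1, 2 and 3 (log2 difference -1.31, SE 0.34, edgeR adjusted p = 0.433). Socs3, an inhibitor of signalling by the IL-6 receptor chain, had 380.2, 649 and 342 CPM in the WT and 1584, 1611 and 328 CPM in the KO libraries. Tnfaip3 (A20), an inhibitor of NF-kB, had 171, 172 and 109 CPM and 2005, 711 and 277 CPM. All 3 KO values of Tnfaip3 lay above all 3 WT values, whereas Socs3 was high in KO libraries 1 and 2 and lowest of all in KO library 3. Neither passed (log2 differences 1.36 and 2.73, edgeR adjusted p = 0.726 and 0.425).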

How the data were processed

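RNA-seq of alveolar macrophages from bronchoalveolar lavage was analysed in 6 libraries, 3 per genotype. The authors deposited a raw read count and an FPKM value per gene and library, per the file headers. StringTie 1.3.0, HISAT2, edgeR and the build mm10 are listed, without roles, per the submitters' processing notes. The annotation and the strand setting of the counting are not given in the sources used here. Reads of a gene and of an overlapping gene on the other strand may therefore not have been told apart, which touches 10 of the 36 members (Cxcl10 and Art3, for example).

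Counts were tested as deposited with edgeR 4.0.16 in R 4.3.3 (filterByExpr, TMM factors, robust quasi-likelihood fit, KO against WT without covariates) over 14037 genes, with Benjamini-Hochberg adjustment over all of them and a threshold of 0.05. CPM values use TMM-scaled library totals. Alternatives were other scalings and filters, DESeq2 1.42.0, limma 3.58.1 (voom, or log2 FPKM with a pseudocount of 1 or 0.1), a replicate block, each library left out, and near-identical pairs summed. Copies were sought among GENCODE M21 transcripts, at 95% identity or more over at least 150 bases. A match of this kind was found for 13 members. The matches of Herc6 and Xaf1 were short, at most 162 and 197 bases, and those of Xaf1 lay in many different genes.

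Values per library are given for the 6 members with the smallest p, the 6 with the largest SD of log2 CPM, the 3 highest and 3 lowest in FPKM and 9 familiar members, by a written rule. Of the pathway list, genes with an unadjusted p under 0.05 are named. The others given (Jak1, Tyk2, Stat2, Irf7, Ifngr1, Socs3, Trex1, Adar, Samhd1 and Ifnb1) were chosen after their values were seen. The 36 members and the lists of pathway genes and markers were chosen with earlier results of these data known. No pair of libraries agreed within sampling noise, so all 6 were counted.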

Additional observations from a re-analysis of the deposited data

How the results depend on the processing

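The number of members that passed was 0 under all 15 alternatives, with a lowest adjusted p of 0.176 (DESeq2). The number of all tested genes that passed, 14, was 36 with no filter on low counts, 199 with DESeq2, 23 with limma-voom, 23 and 27 with limma on log2(FPKM + 1) and log2(FPKM + 0.1), and 1 with the replicate block; with each library left out it lay between 1 (without WT library 3) and 32 (without KO library 3). The median log2 difference of the members lay between -1.15 (without WT library 1) and -0.01 (without WT library 2). Same-numbered libraries deviated from their group means with correlations of -0.125, 0.334 and 0.295. For differently numbered libraries the correlations lay between -0.472 and 0.341. So few libraries cannot show whether equal numbers mark a shared batch or day, and the labels do not say. With the replicate block the members' median was -0.58 and 0 passed.

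Of 285 values over 19 named members, 8 changed sign, all with a library left out. Without WT library 2 the log2 difference was above 0 for Cxcl10 (range over libraries left out -1.72 to 0.45), Ifit3b (-2.45 to 0.27), Rsad2 (-2.01 to 0.34), Ifit3 (-2.20 to 0.10), Ifit1 (-1.70 to 0.37), Isg15 (-1.41 to 0.24) and Usp18 (-1.32 to 0.00698), and without WT library 3 for Ifi44 (-0.65 to 0.00604). The cause was not tested. Of the other named members, those whose log2 difference moved toward 0 by over 1.5 times without WT library 2 were Ifit2 (-0.61), Oas1g (-0.23), Ifi27l2a (-0.17), Mx2 (-0.04), Mx1 (-0.19), Ifih1 (-0.12) and Ddx58 (-0.003), while Cxcl9 moved away from 0 (-0.66). Depth limits the 18 type I interferon genes, at 3 counts or fewer.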
